A study of Parasteatoda tepidariorum with 16 samples.

Results

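The genes described here encode the microtubule machinery of the spider *Parasteatoda tepidariorum*: tubulins, the kinesin and dynein motors that walk on microtubules, dynactin, stathmin, centrosome and centriole proteins, and proteins that bind, fold or modify tubulin. They were chosen by name, as every gene model whose annotated product contains tubulin, kinesin, dynein, dynactin, microtubule, stathmin, centrosom or centriol, which gave 199 of 27990 gene models. These 199 models carry 166 distinct gene identifiers of the annotation, and 59 of them share an identifier with another member, so several are pieces of 1 gene. A total of 161 members had at least 1 read in some library, and 40 had reads in all 16 libraries. The libraries came from wild-type embryos of the Osaka isolate, with no mutation and no treatment in any group. Approximately 10 to 100 cells per library were drawn with a glass capillary from the central (c), intermediate (i) or peripheral (p) region of the germ disc, the sheet of cells that forms the embryo proper. At stage 3, about 20 h after egg laying (AEL), the c cells gave 2 libraries, the i cells 3 and the p cells 3. Stage 4 (28 to 29 h AEL) and early stage 5 (31 to 32 h AEL) had 2 libraries for each of the c and p cells.

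Microtubules are polymers of alpha- and beta-tubulin dimers that form the mitotic spindle and the tracks for transport inside cells. Kinesin heavy chain is the motor subunit of conventional kinesin, which carries cargo toward microtubule plus ends, and its light chain binds cargo. Cytoplasmic dynein, with its activator dynactin, moves toward minus ends, where the gamma-tubulin complex nucleates new microtubules at the centrosome, and axonemal dyneins drive the beating of cilia and sperm tails. In early embryos of many animals these proteins are supplied by the mother as RNA, and they serve the rapid cleavage divisions and the positioning of nuclei.

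Each library held between 4566853 and 10500376 reads counted on gene models, and the members took 1.75% to 2.99% of them. Levels within a gene are given as normalised CPM (reads scaled to library size with TMM factors), and levels between genes as the authors' RPKM, which is per length. As a check of the region labels, g4238, a marker of the embryonic pole that was itself picked from the stage 3 libraries, lay between 402.7 and 2269 CPM in the 6 libraries of c cells and at or below 1.28 CPM in the other 10. A further gene, g26874, is expressed at the embryonic pole and also on the abembryonic side according to the paper. It was likewise picked from the stage 3 libraries, as low in i against c and p cells, so its i-cell value is no separate check. The level of g26874 was 790.6 to 1604 CPM in the c cells and 0 in the i cells. It reached 512.4 CPM in the p cells, in the second p library of stage 4. Each of g4322, g7954 and g12202 was higher in both p than in both c libraries at stage 4 and at early stage 5. At stage 3 none of them set the p cells apart from the i cells, so they did not check those labels. In the i and p cells g4322 was at 0 to 64.96 and 0 to 62.98 CPM, and g7954 at 0 to 269.8 and 76.93 to 184.3 CPM. For g12202 the ranges were 283.9 to 411.1 and 89.44 to 333.6 CPM. Only g7954 set p apart from c cells at stage 3. The number of members with at least 1 read ran from 78 to 140 per library and was highest in the first c library of early stage 5, which also held most genes at 1 CPM or more (10500). The first p library of stage 4 stood apart with the fewest such genes (4511). Reads were often missing from 1 replicate of a pair: of members at 10 CPM or more in a library, a median of 22.6% had at most 3 reads in another replicate of their group at stage 3. The median fell to 15.3% at stage 4 and 2.5% at early stage 5, and over all genes it was 23.2%, 16.1% and 3.86%. On this scale a floor of 3 counts corresponds to 0.256 to 0.774 CPM, depending on the library. With so few cells, fewer cells of a type and less RNA per cell cannot be told apart. The 3 stages came from different mothers, and the i cells of stage 3 from another mother than the c and p cells, so stage and mother, and the i region and its mother, cannot be told apart either.

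Tubulins and kinesins made up most of the members' expression. The 20 tubulin models had a summed mean of 5400 RPKM and took 43% of the members' reads, and the 48 kinesin models had 2630 RPKM and 37.5% of the reads. All other classes were far lower, with 329 RPKM for the 26 microtubule-associated models and 225 RPKM for the 16 tubulin folding and modification models. The 18 cytoplasmic dynein models had 151 RPKM and the 18 centrosome and centriole models 123 RPKM. The 7 dynactin models had 91.8 RPKM, the 4 stathmin models 67.2 RPKM and the 6 gamma-tubulin complex models 58.6 RPKM. The 36 models of axonemal dyneins and their assembly factors summed to 45 RPKM. The summed level of microtubule-associated proteins lay between 327.5 and 681.3 RPKM in the 8 libraries of stage 3 and between 159.3 and 225.8 RPKM in the 8 later libraries. Of the 26 models, g26666 and g4041 carried this gap: the other 24 overlapped between stages, at 125.8 to 208.2 RPKM at stage 3 and 154.2 to 221.0 RPKM later. The summed tubulin level overlapped between stages, at 4917 to 6306 RPKM at stage 3, 4641 to 5638 RPKM at stage 4 and 4170 to 5151 RPKM at early stage 5. For every class, RPKM lack the TMM factors, which were 1.08 to 1.2 at stage 3 and 0.814 to 0.934 later. Stage 3 thus lies higher against the later stages in RPKM than in normalised CPM.

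**Figure D1:**
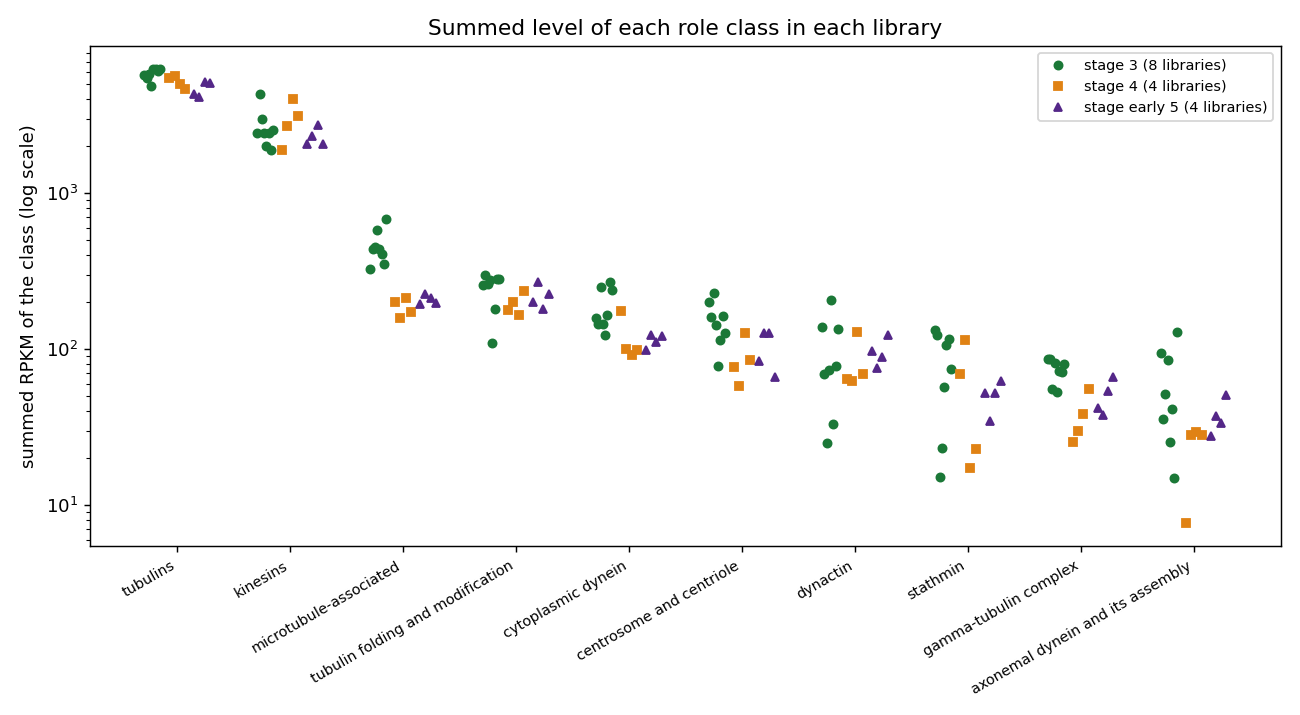
Summed RPKM of each role class (y axis, log scale) in each of the 16 libraries, with 1 point per library and the symbol giving the stage. Tubulins and kinesins lie at 1903 RPKM or above in every library, and the stage 3 libraries of the microtubule-associated class all lie above the later ones, through g26666 and g4041.

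Of the tubulins, 2 alpha and 2 beta models carried most of the level. Of the 11 alpha-tubulin models, g19712 (tubulin alpha-1 chain) averaged 1258 RPKM and g10572, annotated as testis-specific-like, 819.5 RPKM over the 16 libraries. Of the 6 beta-tubulin models, g4723 averaged 1971 RPKM and g12244 909.8 RPKM. The next beta-tubulin, g20811, had 151.6 RPKM and the next alpha-tubulin, g13286, 84.4 RPKM, and below these lay g23745 at 61.9 RPKM, g21245 at 45 RPKM and g1904 (tubulin alpha-1A chain) at 25.5 RPKM. The mapping filter dropped reads that hit near-identical copies about equally well, so levels of single tubulin models are uncertain where the copies are alike.

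The mix of tubulin models differed between stages. The share of g10572 in all alpha-tubulin RPKM was 17.4% to 32.9% in the 8 libraries of stage 3, 41.6% to 53.8% at stage 4 and 38.9% to 45.5% at early stage 5. Its stage 3 range thus lay below both later ranges, whereas summed alpha-tubulin overlapped, at 1973 to 2801 RPKM at stage 3, 2026 to 2451 RPKM at stage 4 and 1883 to 2702 RPKM at early stage 5. Among beta-tubulins, the share of g12244 was 39.6% to 44.0% in the i cells and 27.5% to 34.2% in the c and p cells of stage 3. It was 24.3% to 34.2% at stage 4 and 8.75% to 18.8% at early stage 5, below every earlier library. The share of g4723 took the opposite course and reached 73.2% to 87.3% at early stage 5. Since g4723 and g12244 hold most beta-tubulin RPKM, a fall in the share of g12244 raises that of g4723. The level of g4723 itself was 3646 to 4691 CPM at stage 4 and 3637 to 4681 CPM at early stage 5. These shares are descriptions, and they were not tested.

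**Figure D2:**
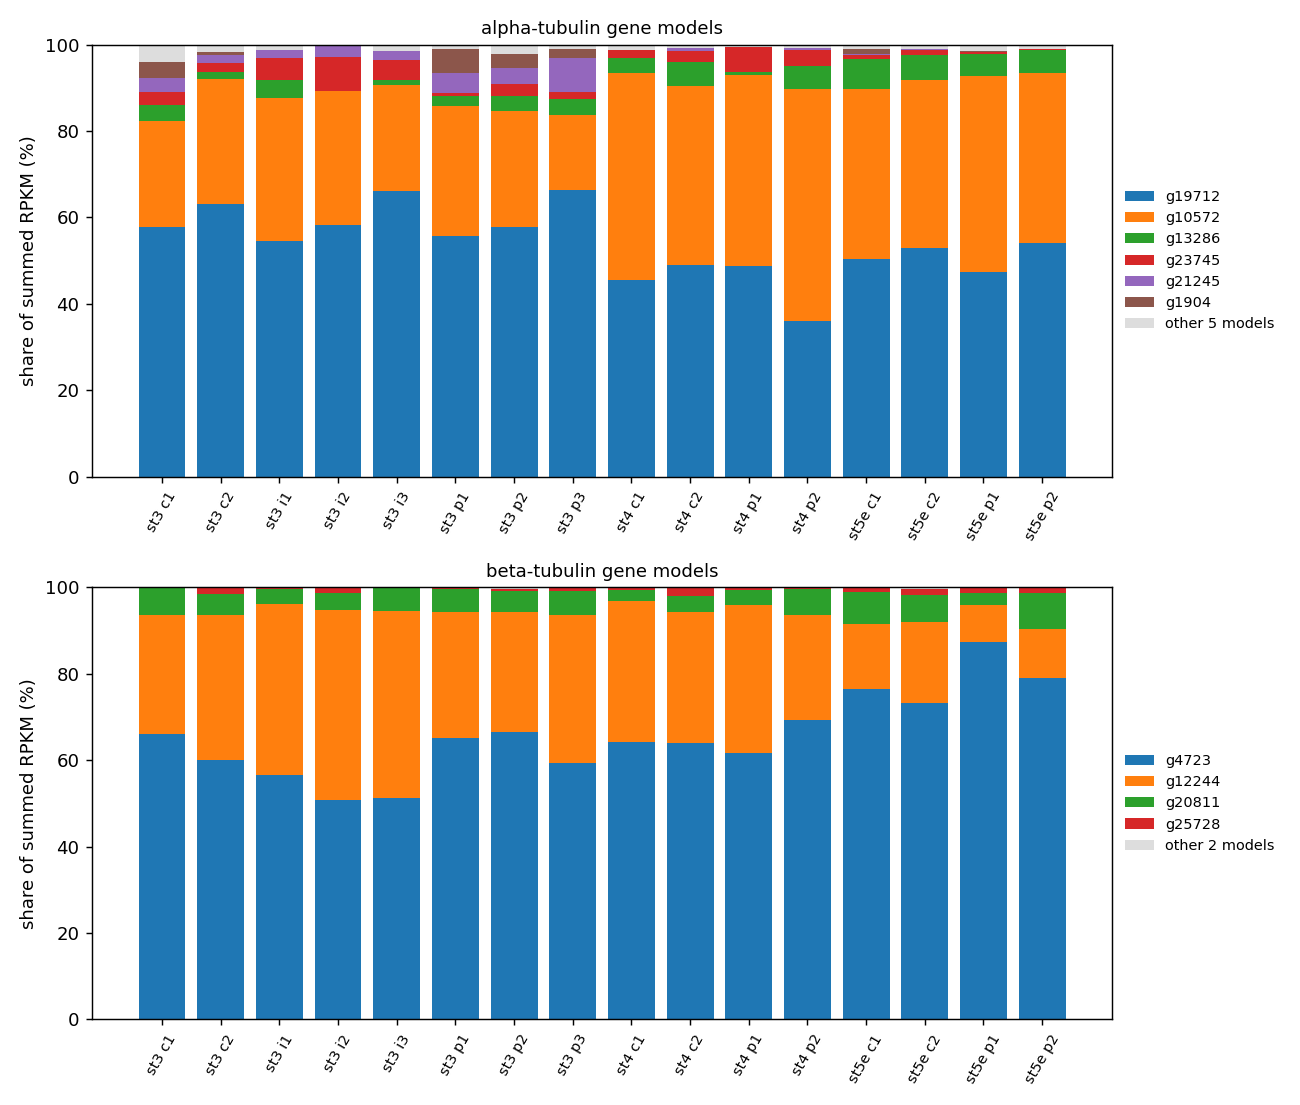
Share of summed RPKM (%, y axis) held by each tubulin model in each library (x axis), for alpha-tubulin above and beta-tubulin below, with the least abundant models joined in grey. The share of g10572 is below 33% in the stage 3 bars and above 38% in the later ones, and the share of g12244 is below 19% in the 4 early stage 5 bars.

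Differences between groups were tested with the quasi-likelihood test of edgeR over all genes at 1 CPM or more in at least 1 library of the fit, and genes with an adjusted p (Benjamini-Hochberg) under 0.05 are called. Over 7 tests, 19 members were called in 24 instances, 22 of them between stages. The labels do not say whether replicates came from separate embryos, so p-values measure the spread between these samples, which may in part be technical.

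In the i cells of stage 3, a kinesin heavy chain stood out. The gene g5179 (kinesin heavy chain-like) was measured at 2222, 4219 and 2650 CPM in the 3 libraries of i cells. It was at 1349 and 916.2 CPM in the c cells and at 1516, 740.5 and 1179 CPM in the p cells. All 3 libraries of i cells thus lay above all 5 of the c and p cells, with means of 3030 ± 1051 CPM (SD, n = 3) and 1140 ± 314.8 CPM (SD, n = 5), and a fold change of 2.69 (log2 1.43 ± 0.20 SE, adjusted p = 5.61e-10, edgeR). It was the 1 member called of 128 tested, where 0.184% of the 10860 genes tested were called. The call held without each library in turn (log2 1.11 to 1.60) and under DESeq2, and the edgeR likelihood ratio test gave an adjusted p of 0.287.

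The same comparison held a gene with the opposite pattern that was not called. The tubulin alpha-1A chain gene g1904 (scaffold 353, positions 384286 to 418880 on the plus strand of the Ptep_1.0 assembly) had no read in the 3 libraries of i cells and 91.0 and 21.3 CPM in the c cells. In the p cells it was at 169.9, 92.7 and 58.8 CPM. The groups did not overlap, and the mean of the c and p cells was at least 228-fold higher than a floor of 3 counts per library in the i cells. Even so, g1904 had an adjusted p of 0.134 in the quasi-likelihood test of edgeR. It passed the threshold in 6 of 18 alternative settings, among them DESeq2 (adjusted p = 2.17e-11), the edgeR likelihood ratio test (0.00196), and the fits without st3_c replicate 2, the second c library of stage 3 (0.0472), and without st3_p replicate 3 (0.0418). Tubulin-specific chaperone A (g16465), which binds beta-tubulin during its folding, showed the same pattern, with 0 reads in the i cells and 29.3 to 58.1 CPM in the c and p cells, and an adjusted p of 0.723 (edgeR). The cytoplasmic dynein 2 heavy chain g24115, a motor of transport within cilia, was at 51.8, 27.8 and 217.3 CPM in the i cells against 0 to 38.3 CPM, with an adjusted p of 0.435. Among the 128 members tested, 14 had an unadjusted p under 0.05 (10.9%, against 4.93% of all genes tested), and the median log2 difference was -0.10 (all genes, -0.29).

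On scaffold 626 of Ptep_1.0, g5179 is the middle one of 3 adjacent kinesin heavy chain models. The order is g5178 (positions 43172 to 79144, minus strand), g5179 (106827 to 131434, minus strand) and g5180 (160786 to 202863, plus strand), with 27682 and 29351 bases between them and a different gene identifier for each. Another abundant kinesin heavy chain model, g11117, starts at the first base of scaffold 1264 (1 to 35575, plus strand), so its model may be cut by the scaffold end. Of 12 kinesin heavy chain models these 4 had mean levels of 447.7 RPKM (g5178), 645.9 RPKM (g5179), 322.3 RPKM (g5180) and 243.2 RPKM (g11117), and the next, g638, had 18.3 RPKM. In the i cells g5178 was at 1342, 2221 and 1663 CPM and overlapped the 1061 to 1737 CPM of the c and p cells (adjusted p = 0.904, edgeR). Likewise g5180 was at 578.8, 1264 and 1230 CPM against 533.0 to 1011 CPM (adjusted p = 0.842), and g11117 at 180.1, 868.9 and 391.1 CPM against 184.5 to 562.0 CPM (adjusted p = 0.904). Whether g5179 differed from its neighbours in its i-cell difference was not tested. Of all kinesin heavy chain RPKM, g5179 held 45.2% to 49.6% in the i cells and 24.9% to 35.9% in the c and p cells of stage 3. 

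At stage 4 all 4 abundant kinesin heavy chains were called as higher than in the c and p cells of stage 3. The largest change was that of g11117, at 184.5, 562.0, 469.8, 362.3 and 467.0 CPM in the c and p cells of stage 3 and at 722.5, 1344, 2508 and 2215 CPM at stage 4. These c and p libraries did not overlap between stages (log2 2.11 ± 0.27 SE, adjusted p = 1.19e-12, edgeR). The i cells of stage 3, outside this test, reached 868.9 CPM for g11117, above its first c library of stage 4. For g5180 the stage 4 libraries held 1171, 1535, 3866 and 1555 CPM, above the highest c or p library of stage 3 (1011 CPM; log2 1.66 ± 0.24 SE, adjusted p = 2.92e-10). Its i cells reached 1264 CPM. For g5179 the stage 4 libraries held 1269, 2939, 3467 and 2595 CPM. Its first c library fell within the range of the stage 3 c and p cells, 740.5 to 1516 CPM (log2 1.25 ± 0.21 SE, adjusted p = 2.00e-07). Its i cells, at 2222 to 4219 CPM, overlapped stage 4. That g5179 call was lost in the edgeR likelihood ratio test (adjusted p = 0.167). The rise of g5178 was the smallest of the 4, from 1452 ± 290.6 CPM (SD, n = 5) to 2217 ± 970.5 CPM (SD, n = 4), with an adjusted p of 0.0275. It rested in part on the first p library of stage 4, at 3651 CPM where the other 3 lay between 1594 and 1977 CPM. The g5178 call was lost without any 1 of 9 of the 13 libraries (it stayed without st3_c replicate 2, st3_p replicate 1, st4_p replicate 2 or st5e_c replicate 1), and without st4_p replicate 1 its log2 change was 0.27 (adjusted p = 0.586). With DESeq2 size factors and with library sizes alone the log2 change was 0.44 and 0.23, and neither was called. The first p library of stage 4 had the highest value of all 16 for g5178, g5180 and g11117 and the fewest genes detected, and the part of its depth in these values was not tested.

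From stage 4 to early stage 5 the fitted changes of the kinesin heavy chains differed in size, and whether they differed from one another was not tested. The level of g11117 fell to 312.2, 470.6, 332.9 and 230.8 CPM, below every stage 4 library (log2 -2.33 ± 0.31 SE, adjusted p = 9.05e-11, edgeR) and within the stage 3 range. The level of g5179 stayed at 1640, 3327, 3231 and 2166 CPM, with a log2 difference of -0.04 ± 0.22 SE from stage 4. For g5180 the difference was -0.70 ± 0.25 SE (adjusted p = 0.278). The call of a fall for g5178 (log2 -0.83 ± 0.24 SE, adjusted p = 0.0464) was lost in 15 of 22 alternatives. Among the libraries left out in turn it remained only without st3_p replicate 3 or st5e_c replicate 1, and without st4_p replicate 1 the log2 value was -0.43. The next heavy chain model, g638, was called as higher at stage 4, at 169.6, 65.1, 16.8 and 210.0 CPM against 0 to 100.4 CPM at stage 3 (log2 1.78 ± 0.54 SE, adjusted p = 0.0142). The 2 stages overlapped for g638, and its call was lost without st3_c replicate 2, st3_p replicate 2, st4_c replicate 1, st4_c replicate 2 or st4_p replicate 2, with adjusted p-values up to 0.329. Without st3_p replicate 1 its log2 change was 2.61.

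**Figure D3:**
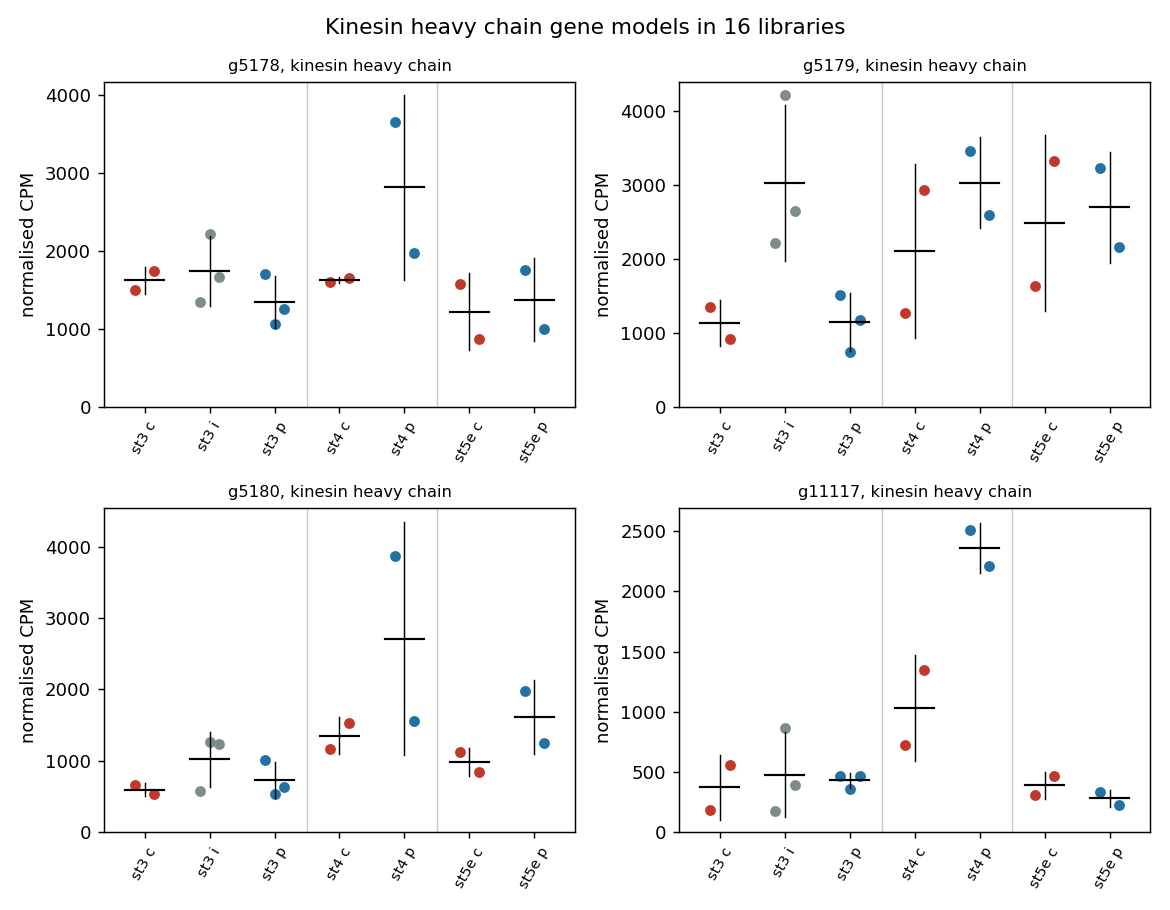
Normalised CPM (y axis, linear) of 4 kinesin heavy chain models in the 7 groups of libraries (x axis: stage, then region), with 1 point per library, a horizontal bar for the group mean and a vertical line for ± 1 SD. The 3 points of i cells for g5179 lie at 2222 to 4219, above the c and p cells of stage 3, and g11117 is high in the stage 4 groups.

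Between c and p cells of the same stage few members differed. At stage 3, 0 of 116 members tested were called in edgeR, where 0.245% of 10202 genes were. Of those members, 4 had an unadjusted p under 0.05 (3.45%, against 3.57% of all genes tested), DESeq2 called 6 and the edgeR likelihood ratio test 0. At stage 4, 0 of 122 members were called where 0.486% of 10074 genes were. An unadjusted p under 0.05 was found for 7 of them (5.74%, against 4.42% of all genes tested), DESeq2 called 6 and the likelihood ratio test 1. At early stage 5, 1 of 142 members was called where 0.812% of 11825 genes were. Each of the shares called with the quasi-likelihood test is near that of all genes. The DESeq2 counts over all genes are given in the section on processing.

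The member with the clearest difference between regions was g65, a kinesin light chain-like gene (scaffold 2, positions 1070794 to 1103665, plus strand). It had no read in the 5 c and p libraries of stage 3. At stage 4 it was at 139.5 and 144.1 CPM in the c cells and at 0 in both p libraries, and at early stage 5 at 49.0 and 69.4 CPM in the c cells and again at 0 in both p libraries. The mean of the c cells thus exceeded a floor of 3 counts per p library by at least 319.7-fold at stage 4 and by at least 97.5-fold at early stage 5. In edgeR the adjusted p was 0.0527 at stage 4, just outside the threshold, and 0.0477 at early stage 5, just inside it. The stage 4 difference passed the threshold in 6 of 13 alternatives, including DESeq2 (adjusted p = 1.27e-08), and the early stage 5 call was lost in 8 of 13, including each fit without 1 library (early stage 5, st5e_c replicate 1 or 2, st5e_p replicate 1 or 2; adjusted p 0.203 to 1.0). With reads in the i cells too (7.45, 21.2 and 0 CPM), g65 was not confined to later stages. The rise of g65 between stages 3 and 4 (adjusted p = 0.000307, edgeR) came from the c cells alone, since both stage 4 p libraries held no read. It was lost under DESeq2 (adjusted p = 0.249) and in a fit over all 16 libraries.

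Other differences between regions did not pass the test. The futsch gene g8116, one of 3 models named after the fly homolog of MAP1B, a stabiliser of microtubules, was at 166.3 and 0.21 CPM in the c cells of stage 3 and at 0 in the p cells (adjusted p = 0.28, edgeR). At stage 4 it was at 107.2 and 191.3 CPM in the c cells and at 0.87 and 7.0 CPM in the p cells, with no overlap (adjusted p = 0.114), and DESeq2 called both differences (adjusted p = 0.0486 and 0.00149). For the kinesin heavy chains of stage 4 the p cells held the higher values: g11117 was at 722.5 and 1344 CPM in the c cells and at 2508 and 2215 CPM in the p cells (log2 -1.27 ± 0.40 SE, adjusted p = 0.172). For g5180 the p cells held 3866 and 1555 CPM and the c cells 1171 and 1535 CPM (log2 -1.09 ± 0.38 SE, adjusted p = 0.341), and without st4_p replicate 1 the log2 difference was -0.23. At early stage 5, g5180 was at 1123 and 845.3 CPM in the c cells and at 1980 and 1247 CPM in the p cells (log2 -0.75 ± 0.25 SE, adjusted p = 0.338). The abundant beta-tubulin g4723 was at 3774 and 3637 CPM in the c cells and at 4681 and 4592 CPM in the p cells of early stage 5 (log2 -0.36 ± 0.13 SE, adjusted p = 0.412), and g10572 at 1614 and 1403 CPM against 2385 and 1774 CPM (adjusted p = 0.473). Over the 3 stages, 0 of 152 members were called for a change in the c-p difference, where 0.0827% of 13306 genes were called. In that test 5 members had an unadjusted p under 0.05 in edgeR (3.29%, against 2.62% of all genes), DESeq2 called 1 (g6953) and the likelihood ratio test 0.

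Most calls fell between stages. From stage 3 to stage 4, in c and p cells, 17 of 152 members tested were called (11.2%), where 9.83% of 13306 genes were, so the members were close to the background. Of these 9 rose, where 5.89% of all genes did, and 8 fell, where 3.94% did. The median log2 difference was -0.13 over the members tested and -0.08 over all genes. Kinesins gave 9 of the 17 calls (6 higher, 3 lower, of 42 tested), tubulins 3 (1 higher, 2 lower, of 17) and microtubule-associated proteins 3 (all lower, of 18), with 1 dynactin subunit and 1 tubulin chaperone, both higher. The median log2 difference of the 18 microtubule-associated proteins tested was 0.64, so their 3 calls and their median differ in sign. None of the 16 centrosome, 6 gamma-tubulin complex, 2 stathmin, 13 cytoplasmic dynein and 19 axonemal dynein models tested was called. DESeq2 called 33 members, 14 of them among the 17, and the edgeR likelihood ratio test 7, of which g4041, g11117, g5180, g26666, g1904 and g65 were among the 17. The balance depended on scaling: with DESeq2 size factors 7 members were higher and 10 lower, and with library sizes alone 6 and 14, as the median of all genes moved to -0.25 and -0.35. Over all genes the split was 784 higher and 524 lower with TMM, 618 and 674 with DESeq2 size factors, and 470 and 897 with library sizes alone.

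**Figure D4:**
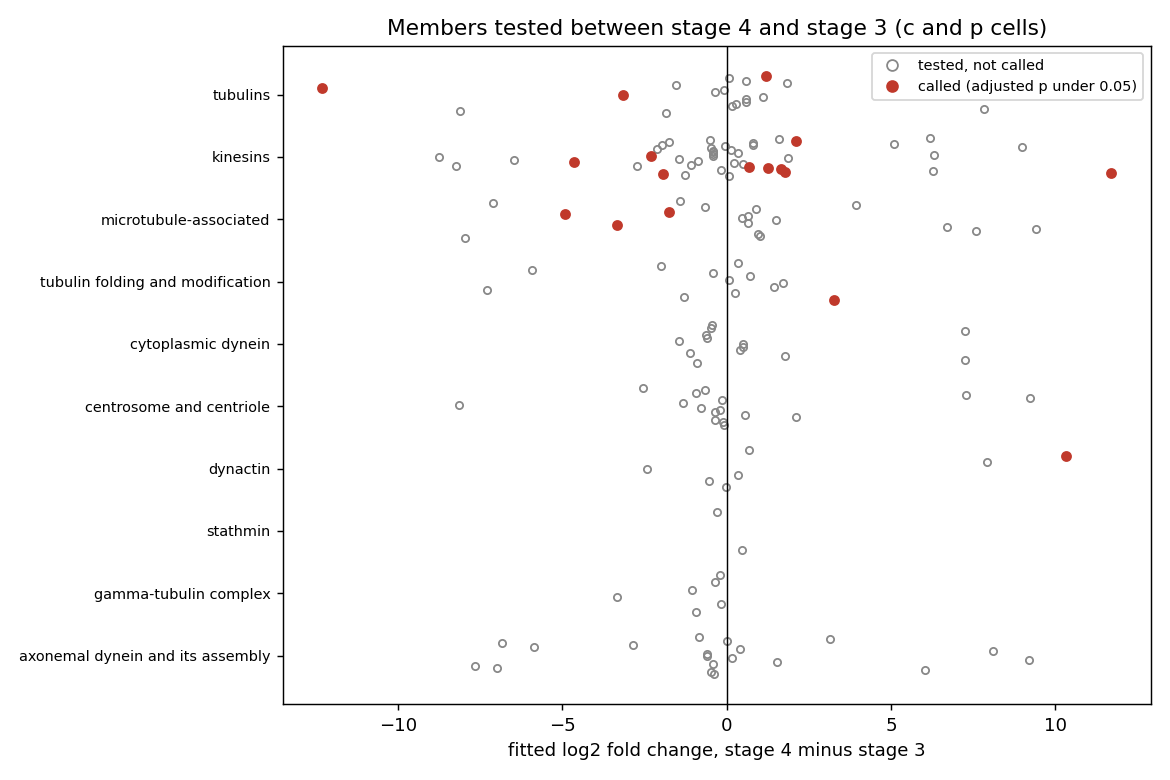
Fitted log2 fold change (x axis) between stage 4 and stage 3 of each of the 152 members tested, in rows by role class, with filled points for the 17 called members. Points beyond about 7 on either side are genes with no or nearly no reads in 1 of the stages, whose fitted value is not a measured fold.

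The 3 microtubule-associated proteins that fell differ in what they do. The futsch gene g4041 lay between 756.7 and 1536 CPM in the 5 c and p libraries of stage 3 and at 918.3, 1054 and 1599 CPM in the i cells. At stage 4 it was at 124.1, 72.0, 179.1 and 31.2 CPM and at early stage 5 at 36.1, 64.6, 4.89 and 59.6 CPM. The fall from stage 3 to stage 4 was 10-fold (log2 -3.32 ± 0.38 SE, adjusted p = 2.92e-16, edgeR), with no overlap, and held in all 22 alternatives, with a log2 value of -3.99 without st4_p replicate 1. The gene g26666, annotated as microtubule-associated proteins 1A/1B light chain 3C, belongs to the LC3 family that marks autophagosome membranes. It was at 212.7, 156.1, 161.8, 117.2 and 383.3 CPM in the c and p cells of stage 3, at 28.0 CPM in the first c library of stage 4 and at 0 in the other 3 (log2 -4.93 ± 0.80 SE, adjusted p = 6.81e-08). At early stage 5 g26666 remained at or below 2.06 CPM. The gene g26557 (microtubule-actin cross-linking factor 1), a large linker between actin and microtubules, went down and up again. It lay between 292.4 and 675.5 CPM in the c and p cells of stage 3, at 183.1, 157.8, 121.1 and 110.4 CPM at stage 4 (log2 -1.76 ± 0.36 SE, adjusted p = 3.08e-05) and at 202.6, 948.2, 668.7 and 610.8 CPM at early stage 5 (log2 2.08 ± 0.38 SE, adjusted p = 1.05e-05). Neither step showed overlapping stages. Both calls of g26557 were lost in the edgeR likelihood ratio test (adjusted p = 0.11 and 0.158) and held without each library.

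Alpha-tubulin models moved in opposite directions between stages 3 and 4. The rise of g10572, from 967.3 ± 224.0 CPM (SD, n = 5) to 2086 ± 105.2 CPM (SD, n = 4), was 2.27-fold, with no overlap between stages (log2 1.19 ± 0.22 SE, adjusted p = 6.52e-06, edgeR), and the likelihood ratio test gave an adjusted p of 0.219. The 4 stage 4 libraries of g10572 lay close together, at 2115, 2077, 2202 and 1949 CPM. In contrast g21245 fell from 93.7, 71.8, 168.0, 138.1 and 303.7 CPM to 1.19, 37.5, 2.42 and 13.9 CPM (log2 -3.14 ± 0.73 SE, adjusted p = 0.000421), and without st4_c replicate 2 the log2 change was -4.57. With no read in any stage 4 library, g1904 was at least 205-fold lower than the mean of its 5 stage 3 c and p libraries, against a floor of 3 counts per library (adjusted p = 7.57e-05, called in all 22 alternatives). At early stage 5, g1904 was at 38.7 and 0 CPM in the c cells and 12.1 and 0 CPM in the p cells. The abundant g19712, at 2220 ± 320.6 CPM (SD, n = 5) and 1991 ± 518.0 CPM (SD, n = 4), and g4723, at 3737 ± 393.3 and 3998 ± 485.2 CPM, were not called (adjusted p = 0.93 and 0.629).

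Among the less abundant motor genes, g23905 (KIF21B, a kinesin that affects microtubule growth in mammalian neurons) fell from 166.9 ± 75.0 CPM (SD, n = 5) to 32.4 ± 14.5 CPM (SD, n = 4), with no overlap (log2 -2.31 ± 0.60 SE, adjusted p = 0.00229, edgeR). The gene g8844 (trafficking kinesin-binding protein 1, an adaptor that links kinesin to mitochondria) fell from 169.3 ± 71.4 to 42.2 ± 26.7 CPM (adjusted p = 0.00879), with overlapping libraries, and without st4_c replicate 1 its adjusted p was 0.0777. The gene g3504 (KIF19, which shortens microtubules at cilium tips in mammals) was at 62.7 and 23.7 CPM in the c cells and 5.22, 0.39 and 81.4 CPM in the p cells of stage 3. At stage 4 g3504 was at 0, 5.19, 0 and 0 CPM (adjusted p = 0.0339), and among the fits without 1 library its call stayed only without st3_c replicate 2, st3_p replicate 1 or st3_p replicate 2 (adjusted p up to 0.169 otherwise). Tubulin-specific chaperone C (g6953), which acts in the assembly of the tubulin dimer, rose in the c and p cells from 31.8, 0.11, 0, 0 and 0 CPM to 91.2, 49.0, 58.0 and 63.1 CPM. These libraries did not overlap (log2 3.28 ± 0.88 SE, adjusted p = 0.00366, edgeR), while the i cells of stage 3 held 53.2, 24.0 and 0 CPM. Dynactin subunit 6 (g1270), of the pointed-end complex of dynactin, had no read in the 5 c and p libraries of stage 3, none in the c cells of stage 4, and 60.2 and 12.0 CPM in the p cells of stage 4 (adjusted p = 0.0459). That call stayed, among the fits without 1 library, only without st3_c replicate 2 or st4_p replicate 2, and without st4_p replicate 1 the adjusted p was 0.425. The i cells of stage 3 also held g1270, at 52.4, 18.1 and 0 CPM.

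From stage 4 to early stage 5, 5 of 152 members were called (3.29%), where 1.09% of 13306 genes were. Of these 4 fell, where 0.774% of all genes did, and 1 rose, where 0.316% did. Besides g11117, g5178 and g26557, described above, these were a beta- and an alpha-tubulin. The beta-tubulin g12244 was at 1870, 2069, 1894 and 1189 CPM at stage 4 and at 689.9, 869.5, 436.5 and 613.7 CPM at early stage 5, with no overlap (log2 -1.49 ± 0.26 SE, adjusted p = 2.21e-06, edgeR). Its level at stage 4 did not differ detectably from that at stage 3 (1686 ± 348.2 CPM; SD, n = 5; adjusted p = 0.926). The call of g12244 was lost in the likelihood ratio test (adjusted p = 0.365) and held without each library. The alpha-tubulin g23745 fell from 119.7, 176.5, 418.3 and 196.3 CPM to 54.1, 51.0, 30.6 and 15.8 CPM (log2 -2.68 ± 0.63 SE, adjusted p = 0.00305), and this call was lost without st4_p replicate 1 (adjusted p = 0.119), st5e_p replicate 1 (0.0758) or st5e_p replicate 2 (0.13). The count of called members was 3 without any of those 3 libraries, since g5178 and g23745 were then not called.

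**Figure D5:**
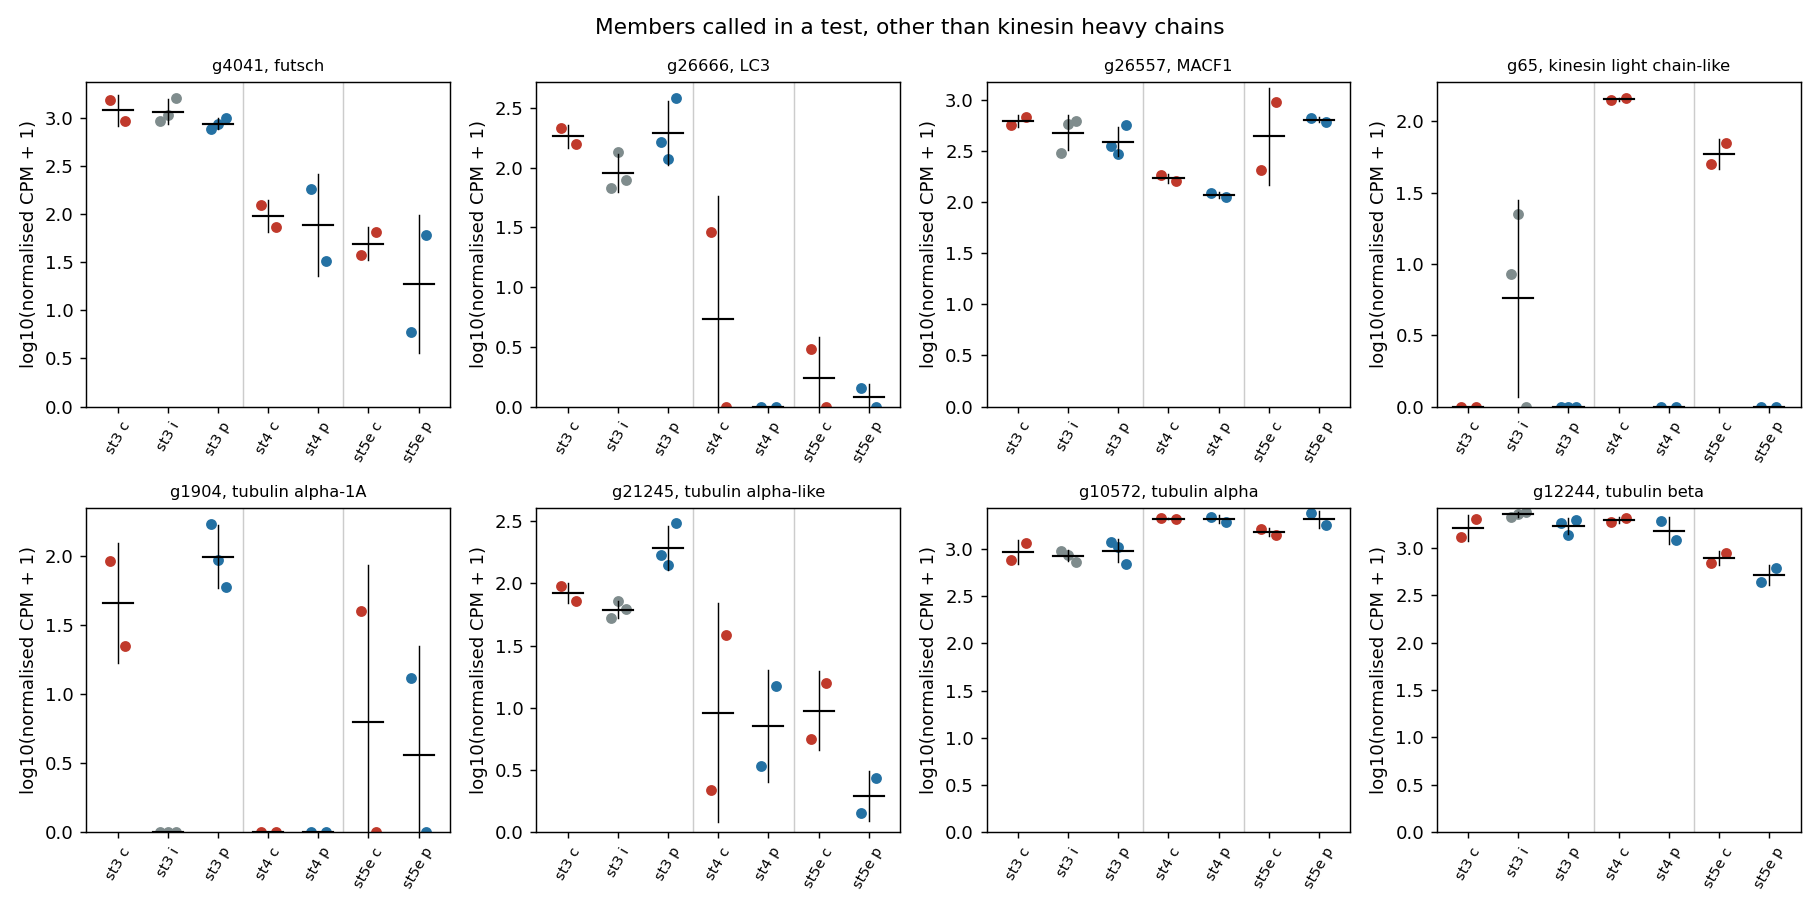
Level of 8 members other than kinesin heavy chains that were called in a test, as log10(normalised CPM + 1) (y axis), in the 7 groups of libraries (x axis), with 1 point per library, the mean of the log values as a horizontal bar and ± 1 SD as a vertical line cut at 0. The futsch gene g4041 and the LC3 gene g26666 are high in all stage 3 groups and low later, g65 has points above 0 in i cells of stage 3 and in c cells of stage 4 and early stage 5, and g1904 is at 0 in the i cells and at stage 4.

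Of the mitotic kinesins, 4 were chosen for description after their values were seen, and these had reads in all libraries. Other models, among them KIF20A (g20290) and another KIF23 model (g26695), had no read in some libraries. KIF20B (g17615), which acts in cytokinesis in mammals, lay between 237.9 and 1408 CPM, and KIF11-B (g19893), of the family that pushes spindle poles apart, between 231.4 and 587.0 CPM. In RPKM, KIF20B averaged 129.7, KIF11-B 105.9, KIF23 (g3831), a part of the central spindle, 94.3, and a carboxy-terminal kinesin (g4311) 133.6. The model g22265 has the identifier of KIF11-B and 209.0 RPKM, but it spans an implied 195 bases of transcript and held at most 96.8 CPM, with no read in 1 library of i cells. None of these was called in a test. At early stage 5 KIF20B was at 1408, 1231, 973.5 and 891.0 CPM, above the 530.1 to 727.0 CPM of stage 4 (log2 0.68 ± 0.29 SE, adjusted p = 0.562, edgeR). In the i cells the KIF11-B model g19893 was at 482.7, 461.1 and 453.6 CPM, above the 231.4 to 319.9 CPM of the c and p cells of stage 3 (log2 0.74 ± 0.34 SE, adjusted p = 0.904). The models g22265 and g19868, also of KIF11-B, did not set the i cells apart. For g22265 the i cells held 0, 74.6 and 34.8 CPM against 0.11 to 96.8 CPM, and for g19868 23.8, 0 and 43.8 CPM against 0 to 45.7 CPM.

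Cytoplasmic dynein was present throughout at moderate levels. Its heavy chain g17874, the motor subunit, lay between 212.3 and 692.1 CPM (26.5 RPKM on average) and the light intermediate chain g1931 between 17.9 and 335.6 CPM (41.6 RPKM). The intermediate chain g6224 ranged from 20.8 to 243.1 CPM (24.6 RPKM), and a further heavy chain model, g22468, from 0 to 77.9 CPM (28.6 RPKM). The model g22468 spans an implied 750 bases of transcript, far fewer than g17874, so its RPKM rests on a short piece. None of these dynein models was called. The light intermediate chain was at 236.1, 206.6, 335.6 and 150.6 CPM at stage 4 and at 82.8, 86.9, 65.7 and 118.7 CPM at early stage 5, without overlap (log2 -1.44 ± 0.51 SE, adjusted p = 0.254, edgeR). The class of 18 models also held 7 named as ciliary dyneins, and 5 of the 18 had no read. Dynactin subunits were found in fewer libraries: none of the 7 had reads in all 16, and dynactin subunit 1 (g9112), which binds dynein, ran from 0 to 156.6 CPM. Subunit 2 (g1076) had 18.7 RPKM on average, and the models of subunit 4, g22127 and g7767, 16.7 and 15.2 RPKM. The model g22127 spans an implied 453 bases of transcript and had reads in 8 libraries, against 1848 bases and 14 libraries for g7767.

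Of the centrosome, centriole and gamma-tubulin complex models chosen by name, none was called in a test, where at most 9.83% of all genes were (stage 4 against stage 3). Of 18 centrosome and centriole models, 2 had no read and 4 were above 3 counts in every library. The most abundant were CEP170B (g25436; 24.0 RPKM, 38.2 to 259.2 CPM), CEP350 (g26840; 19.2 RPKM, 40.1 to 317.3 CPM), CEP152 (g4057; 15.3 RPKM), a scaffold of centriole duplication, and CEP192 (g18056; 13.95 RPKM), which recruits the material around centrioles. The neighbouring model g26841, 2576 bases from g26840 with the same identifier, is a further piece of CEP350 and ranged from 0 to 54.6 CPM. Of the gamma-tubulin complex, component 3 (g11170) averaged 23.7 RPKM and lay between 18.2 and 174.1 CPM, component 4 (g7721) averaged 14.4 RPKM, component 5 (g11421) 6.71 RPKM and component 6 (g25789) 6.04 RPKM. The summed level of this complex was 53.2 to 87.1 RPKM at stage 3, 25.4 to 55.4 RPKM at stage 4 and 37.6 to 66.8 RPKM at early stage 5, with overlap. 

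Of the 4 stathmin models, whose products sequester tubulin dimers, 2 had no read in any library. The models g15042 and g21383 carry the same identifier, and g21383 spans an implied 342 bases of transcript. The model g15042 was found in all 16 libraries at 27.5 to 154.3 CPM, and g21383 in some at up to 31.3 CPM. Among tubulin-modifying enzymes, the polyglutamylase TTLL4 (g23946) lay at 118.7 to 265.1 CPM in all libraries (68.7 RPKM). Tubulin-folding cofactor B (g4368; 32.9 RPKM) and the tyrosine ligase-like protein g27314 (32.5 RPKM) followed. The end-binding protein g8192 (RP/EB family member 1), which tracks growing microtubule ends, was at 30.5 to 187.8 CPM at stage 3, 158.6 to 295.3 CPM at stage 4 and 309.9 to 343.3 CPM at early stage 5. Its early stage 5 libraries all lay above all earlier ones, and neither step between stages was called (adjusted p = 0.0999 and 1.0, edgeR). The kinase MARK3 (g25428), which phosphorylates microtubule-associated proteins in mammals, averaged 54.7 RPKM and was not called either (adjusted p = 0.0851 between stages 3 and 4).

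Axonemal dyneins were mostly at or near 0 reads. Of the 36 models, 13 had no read, 16 were never above 3 counts in a library, 4 exceeded 3 counts in at least 8 libraries and 7 had a mean of 1 RPKM or more. The exception was the dynein assembly factor 5 (g19561), at 23.6 to 160.0 CPM in all 16 libraries (21.2 RPKM). The heavy chain 12 model g10814 was at 39.2 CPM in 1 library of i cells, at 59.9 and 20.0 CPM in the p cells of stage 4 and at 5.26 to 22.5 CPM at early stage 5. The adjacent models g10813, g10815 and g10816 carry the same identifier, and g10813 was at 29.0 CPM in the first c library of stage 3, where g10814 was at 5.69 CPM. Dynein regulatory complex subunit 3 (g2824) was at 13.7, 8.70, 12.2 and 36.3 CPM in single stage 3 libraries and at or below 2.06 CPM later. None of the 19 axonemal members tested between stages 3 and 4 was called, where 9.83% of all genes were. With 19 models this does not set them apart from all genes.

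Lists of genes that work with these members gave few calls outside the step from stage 3 to stage 4. Of 54 genes of the spindle, kinetochore, centrosome and dynein partners, 49 were tested there and 11 were called (22.4%, against 9.83% of all genes), 4 higher and 7 lower, with a median log2 difference of -0.17 (all genes, -0.08). Centromere protein J (g26105), which acts in centriole assembly and is not caught by the name rule, fell from 91.1 ± 34.7 CPM (SD, n = 5) to 21.9 ± 21.9 CPM (SD, n = 4; adjusted p = 0.0406, edgeR). Centromere protein F (g7706), a kinetochore protein, fell from 892.4 ± 110.4 CPM (SD, n = 5) to 319.5 ± 225.0 CPM (SD, n = 4; adjusted p = 9.74e-05, edgeR). A zw10 homolog (g19775), which holds dynein at kinetochores, fell from 119.9 ± 30.3 to 7.94 ± 13.3 CPM (adjusted p = 0.000198), and kinetochore-associated protein 1 (g9313) from 117.1 ± 57.9 to 19.2 ± 29.6 CPM (adjusted p = 0.00266). The lissencephaly-1 homolog g12574, a regulator of dynein, rose from 48.7 ± 51.8 to 132.1 ± 66.3 CPM (adjusted p = 0.0333), and its partner nudE (g3849) had no read in the 5 c and p libraries of stage 3 and 147.7, 8.46, 0 and 27.9 CPM at stage 4 (adjusted p = 0.00164). The inner centromere protein g5177, whose model number precedes the 3 adjacent kinesin heavy chains, rose from 1299 ± 442.7 to 2188 ± 858.6 CPM at stage 4 (adjusted p = 0.00859) and fell to 657.9 ± 338.5 CPM at early stage 5 (n = 4; adjusted p = 1.08e-09). That was the 1 call of 49 at that step, and between regions the 1 call was centromere-associated protein E (g10461), a kinetochore kinesin not caught by the name rule, at 87.4 and 56.2 CPM in the c cells and 833.7 and 222.8 CPM in the p cells of stage 4 (adjusted p = 0.00543). Of 46 cilium genes, 39 were tested between stages 3 and 4 and 2 were called (5.13%), the transport protein IFT80 (g2661), lower, and CFAP20 (g8778), higher, and 0 were called in any other of the 7 tests, with at most 2 at an unadjusted p under 0.05 in each (edgeR).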

How the data were processed

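RNA-seq of polyadenylated RNA from 16 samples of isolated cells was analysed (SMARTer Stranded libraries, single-end reads). The authors trimmed reads, mapped them with BLAT to the Ptep_1.0 assembly, kept reads with a unique best hit and counted them with HTSeq on AUGUSTUS gene models. The deposited table of raw counts per gene model was used for tests. The RPKM values deposited by the authors, normalized for gene length and library size, were used for levels between genes. Rows that name no gene (5), filled for early stage 5 only at 8.18% to 8.85% of counts, were left out.

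Counts were tested with edgeR 4.0.16 (R 4.3.3; TMM, glmQLFit without the legacy option, genes at 1 CPM or more in at least 1 library). A standard error is the absolute log2 change divided by the square root of the F statistic. There were 7 tests: c against p cells at each of 3 stages, i against joined c and p cells at stage 3, stage 4 against stage 3 and early stage 5 against stage 4 (13 c and p libraries, region as a term), and a change of the c-p difference between stages. Displayed CPM used TMM factors over all 16 libraries. The scripts were tested on simulated data. Alternatives were DESeq2 1.42.0, the likelihood ratio test and the earlier quasi-likelihood form, other scalings and filters, 1 fit over all libraries, the replicate block and each library left out. The earlier form was added after seeing the data.

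Members and gene lists were chosen with earlier results of these data known. Named are g5179, g1904, members called in a test, the 4 most abundant of each role class and adjacent models of the same product, besides genes named in addition. Gene identifiers of 181 of 199 members were found in a RefSeq table of another assembly, from which no coordinates were taken. Counts limit precision: a floor of 3 counts covers counting error only. No library pair was identical.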

Additional observations from a re-analysis of the deposited data

How the results depend on the processing

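DESeq2 called 6 members between c and p cells at stage 3, 7 in the i cells, 6 between regions at stage 4, 33 between stages 3 and 4, and 10 between stage 4 and early stage 5, and its likelihood ratio test called 1 for the change of the c-p difference. The edgeR likelihood ratio test called 1 between regions at stage 4, 7 between stages 3 and 4 and 2 between stage 4 and early stage 5. The earlier quasi-likelihood form called 2 in the i cells, 1 between regions at stage 4 and 1 for the change of the c-p difference. At stage 4 the call of 1 member between regions (g65) also appeared with DESeq2 size factors and with at least 10 counts in 2 libraries, and 2 were called with library sizes alone (g65 and g11117). The fit over all 16 libraries called 1 member at stage 3 between c and p cells (g8116), 2 in the i cells (g5179 and g1904) and 0 at early stage 5. At early stage 5 the count was also 0 with no filter, with at least 10 counts in 2 libraries and with the replicate block. Over all genes, DESeq2 called 932 where edgeR called 25 between c and p cells at stage 3, 696 against 20 in the i cells, 299 against 49 and 412 against 96 between regions at stage 4 and early stage 5, 1968 against 1308 and 688 against 145 for the steps between stages, and 104 against 11 for the change of the c-p difference. The edgeR likelihood ratio test gave 458 and the earlier quasi-likelihood form 807 over all genes between stages 3 and 4. The cause of these differences was not tested.

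Leaving out each library gave 0 calls at stage 3 and stage 4 between c and p cells, 1 to 2 in the i cells, 0 at early stage 5 (0 to 0 in all 4 fits, against 1), 12 to 20 between stages 3 and 4, 3 to 5 between stage 4 and early stage 5, and 0 to 1 for the change of the c-p difference (g9112 without st3_p replicate 2). Where a group was left with 1 library, that library was assumed to vary like the others. Of 24 called gene results, 6 stayed past the threshold in all of their alternatives, 18 fell below it in at least 1, and 0 changed direction. The difference of g5179 between stage 4 and early stage 5, -0.04 and not called, changed sign to 0.0366 under DESeq2, 0.0348 with DESeq2 size factors, 0.0357 with library sizes alone, 0.0378 with at least 10 counts in 2 libraries and 0.0362 in the fit over all libraries, and ran from -0.28 to 0.17 over the fits without 1 library.

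Replicate numbers are shared between groups, and the labels do not tie them to animals or days. Deviations of same-numbered libraries from their group means correlated at -0.02 to 0.05, so no pairing was detected. These values cannot exclude that same-numbered samples shared an embryo. With 2 libraries per group, both pairs of a stage repeat the same value (0.0171 at stage 4, 0.0468 at early stage 5). With the replicate block, 0, 1, 0 and 0 members were called in the 4 comparisons within a stage, 18 between stages 3 and 4, 5 between stage 4 and early stage 5 and 0 for the change of the c-p difference. Members missing from 1 replicate of a pair were more frequent at stage 3, with 5948619 to 10500376 reads per library, than at early stage 5, with 4566853 to 5896305, and the cause was not tested.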
